A study of Mus musculus with 12 samples.

Results

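The 10 genes described here encode proteins that build, branch and sever actin filaments in the oocyte, and the vesicle proteins that carry actin nucleators. They were Fmn2, Spire1, Spire2, Daam1, Actr2, Actr3, Wasl, Rab11a, Myo5b and Cfl1, taken by symbol from the GENCODE mouse annotation, and they made up 10 of the 55573 genes in the count files. A fully grown mouse oocyte divides very unequally, and it moves its spindle to the cortex through an actin network before it gives off a small polar body. Formin-2 and the Spire proteins nucleate the filaments of that network, RAB11A-positive vesicles and myosin Vb carry and organise the nucleators, and the Arp2/3 complex builds a branched actin cap over the chromosomes. Cofilin severs old filaments and returns monomers to the pool.

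The libraries were made as a test of normalization by ERCC spike-in RNA, a set of synthetic transcripts, and differ in amplification cycles and in the fraction of an oocyte used. Mouse oocytes at the germinal vesicle (GV) stage, kept ex vivo in M2 medium with milrinone, which holds them at that stage, were lysed singly. Libraries were made by way of amplified cDNA from the RNA that oligo-dT beads bound by its poly(A) tail. Whole oocytes were amplified for 10, 14 or 18 cycles, with 2 libraries each and 1 oocyte per library, so 6 oocytes in all. The 1/2, 1/4 and 1/8 fractions, with 2 libraries each, came from diluted lysates of 2 oocytes and were amplified for 18 cycles according to the published methods. By the labels and methods each lysate received the same volume of diluted ERCC mix, which the counts cannot check. The methods name a B6D2F1 female aged 12 weeks as the source of the oocytes. Taken as written, all libraries therefore go back to oocytes of 1 animal, and their spread does not include differences between animals. Neither labels nor methods say whether the 2 libraries of a fraction came from different oocytes. The spread of the fractions may therefore not include differences between oocytes.

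The whole oocytes of 10 cycles had 11597144 and 9189672 counts on genes, those of 14 cycles 12349577 and 13806199, and those of 18 cycles 3017069 and 1706478. The fractions had 4024670 and 3598549 (1/2), 4027907 and 5049518 (1/4), and 11404262 and 1702062 (1/8). Levels are given as counts per 1000000 counts on genes (CPM), with replicate 1 before replicate 2. All 10 genes had counts in all 12 libraries. The lowest count was 23, for Spire2 in replicate 2 of the 1/8 fractions, which gives 13.5 CPM with a 95% Wilson interval of 9.0 to 20.3 CPM. The summed level of the 10 genes was 2256 and 2248 CPM at 10 cycles, 2051 and 2126 CPM at 14 cycles, and 2183 and 2040 CPM at 18 cycles. In the fractions it was 2259 and 2184 CPM (1/2), 2088 and 2179 CPM (1/4), and 2271 and 2563 CPM (1/8). The sum stayed within a narrow band, and single genes took different shares of it.

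The oocyte label was checked against marker genes. All 10 oocyte markers had counts in every library. Their summed level was 23075 and 20275 CPM at 10 cycles, 22776 and 24203 CPM at 14 cycles, 11483 and 10083 CPM at 18 cycles, 13142 and 12256 CPM in the 1/2 fractions, 17681 and 16996 CPM in the 1/4 fractions, and 18946 and 16612 CPM in the 1/8 fractions. Gdf9, an oocyte growth factor, had the highest CPM of them at 10 and 14 cycles and in the 1/8 fractions. Zar1, a maternal effect gene, had it in the other libraries. The 11 markers of granulosa and cumulus cells summed to 129 and 73.7 CPM at 10 cycles, 90.3 and 138 CPM at 14 cycles, 59.99 and 24.6 CPM at 18 cycles, 32.1 and 30.3 CPM in the 1/2 fractions, 53.6 and 52.9 CPM in the 1/4 fractions, and 76.4 and 68.2 CPM in the 1/8 fractions. By CPM Nr5a2 led that list in 10 libraries and Cyp19a1 in both 1/8 fractions. Per kilobase of annotated exon Cyp19a1 had the highest median of the list. In that list Nr5a2, Cyp19a1 and Inha had counts in all 12 libraries, Inhba in 10, Amh in 9, Fst and Has2 in 8 each and Wt1 in 6. Foxl2 and Amhr2 were at 0 in 7 libraries each and Fshr in 9. Inha, another granulosa marker, stood at 34.1 CPM in replicate 1 at 10 cycles, 31.9 CPM in replicate 2 at 14 cycles and 17.2 CPM in replicate 1 at 18 cycles, and at most at 3.64 CPM elsewhere. Amh stood at 6.12, 4.85 and 6.63 CPM in these 3 libraries, at 5.21 CPM in replicate 1 of the 1/4 fractions and at most at 1.39 CPM elsewhere. Inha and Amh were thus higher in 1 library of each cycle number. In the other library of each, Fmn2 stood at 254, 234 and 79.7 CPM at 10, 14 and 18 cycles, Spire1 at 316, 243 and 135 CPM, and Rab11a at 392, 355 and 688 CPM. The 6 markers of stroma, theca and blood summed to 7.07 CPM in replicate 1 at 10 cycles and to at most 1.24 CPM elsewhere. The sum of the oocyte markers was lower at 18 cycles, as were Fmn2 and Spire1, and its part in their values was not tested.

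The 10 genes were ordered by counts per kilobase of annotated exon, scaled to 1000000 in each library (TPM), the scale on which different genes can be compared. Rab11a stood first in all 6 groups and overlapped with no other gene. At 10 cycles it stood at 408 TPM, followed by Myo5b (156) and Cfl1 (147), whose replicates overlapped, and then by Spire1 (127). Actr2 (105), Fmn2 (103), Daam1 (101) and Wasl (101) overlapped with their neighbours, and Actr3 (65.2) and Spire2 (23.4) came last with no overlap. At 14 cycles the first 6 places were the same. At 18 cycles Rab11a stood at 761 TPM and Myo5b at 140, and the latter overlapped with Wasl (110). Cfl1 (83.8), Actr2 (72.4) and Daam1 (69.8) came next, each overlapping with the gene before it. Actr3 (50.6), Spire1 (41.5), Spire2 (27.4) and Fmn2 (26.4) closed the order, and each of these overlapped with the next. Fmn2 was thus last at 18 cycles, level with Spire2. In the 1/8 fractions Rab11a (547), Cfl1 (168) and Myo5b (134) led without overlap, and Fmn2 (84.0) again stood above Spire2 (30.02). When the longest transcript was used as the length, 18 of the 60 places moved. At 18 cycles Fmn2 (26.1) then stood above Spire2 (23.7), which was last, and the 2 genes still overlapped.

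Some reads could belong to more than 1 gene. Exons of Cfl1 shared 468 bases (16.5%) with Snx32 on the opposite strand, and those of Rab11a shared 107 bases (3.58%) with Gm47308. Outside their own loci, Actr2 had 1 copy with at least 95% identity over at least 200 bases, Actr3 had 2 and Cfl1 had 1, all processed pseudogenes. Counts on these copies reached at most 1.64% of the level of Actr2, 1.65% of that of Actr3 and 0.436% of that of Cfl1. The other 7 genes had no such copy.

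The first question was whether the number of cycles moved these genes in whole oocytes. Between 14 and 10 cycles 0 of the 10 genes passed an adjusted p of 0.01 (edgeR quasi-likelihood test, Benjamini-Hochberg over 17532 genes), against 0% of all genes. At an unadjusted p of 0.05 there were 0 of the 10, against 2.93% of all genes, and with DESeq2 0 of the 10, against 0.0114%. Their log2 fold changes ran from -0.40 (Actr3) to 0.42 (Spire2). Between 18 and 10 cycles Fmn2 and Spire1 were called lower, 2 of the 10 genes, against 10.8% of all genes. Rab11a was called higher, 1 of the 10, against 12.3%. Between 18 and 14 cycles Fmn2 alone was lower (1 of the 10, against 10.7% of all genes) and Rab11a alone was higher (1 of the 10, against 12.5%). The 2 comparisons share the libraries at 18 cycles, and the adjusted p-values measure the spread between these libraries only.

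These directions rest on the scaling, here by the median ratio over genes. For each ERCC count there were 323 and 360 gene counts in the oocytes of 10 cycles, 347 and 354 in those of 14 cycles, but 1873 and 1158 in those of 18 cycles. With ERCC size factors the median log2 fold change of all genes moved from -0.29 to 1.96 against 10 cycles and to 1.97 against 14 cycles, with 0 genes lower and 8348 higher against 10 cycles. The values of Fmn2 then turned to 0.59 and 0.82, and those of Spire1 to 0.89 and 1.22. Cfl1 turned to 1.76 and 1.77 in the same way, and Actr2 and Daam1 turned to 2.05 and 2.07 against 10 cycles. Rab11a kept its direction and was called, at 3.52 and 3.55. The falls of Fmn2 and Spire1 are therefore relative to the other genes of the same library, while Rab11a was higher at 18 cycles on both scales. Since ERCC scaling shifts all genes of a library alike, the kept direction of Rab11a adds no support to its rise.

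Fmn2 (ENSMUSG00000028354, chromosome 1 from 174501825 to 174822729 on the plus strand) encodes formin-2, which nucleates and elongates straight filaments and is needed for spindle migration in mouse oocytes. It stood at 249.7 and 254 CPM at 10 cycles, 234 and 215 CPM at 14 cycles and 60.3 and 79.7 CPM at 18 cycles. Both libraries at 18 cycles lay below all 4 libraries with fewer cycles, and the replicates of each group were close. The group means were 252 ± 3.09 CPM, 224 ± 13.02 CPM and 70.01 ± 13.7 CPM (SD, n = 2 each). The log2 fold change was -1.58 ± 0.23 (SE) against 10 cycles, with an adjusted p of 0.000533 by edgeR. Against 14 cycles it was -1.38 ± 0.23, with an adjusted p of 0.00108 by edgeR. The call against 14 cycles was lost without replicate 1 at 14 cycles (log2 fold change -1.30).

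Spire1 (ENSMUSG00000024533, chromosome 18 from 67488209 to 67610790 on the minus strand) encodes a nucleator that works together with formin-2 and sits on vesicles. Its levels were 290.1 and 316 CPM at 10 cycles, 243 and 263 CPM at 14 cycles and 79.2 and 135 CPM at 18 cycles. Again both libraries at 18 cycles were below the other 4, but they differed more from each other than the replicates at 10 or 14 cycles did. Against 10 cycles the log2 fold change was -1.23 ± 0.28, with an adjusted p of 0.00658 by edgeR. That call was lost without replicate 1 (-1.32) or replicate 2 (-1.12) at 10 cycles, without replicate 2 at 14 cycles (-1.22) and without replicate 1 at 18 cycles (-0.80). Against 14 cycles the value of -0.93 missed the threshold (adjusted p 0.0246 by edgeR). It passed with DESeq2 (-0.92), with no filter on low counts (-0.94), with scaling by total counts (-1.25) and without replicate 2 at 18 cycles (-1.42). When 1 library at a time was left out, the value ran from -1.42 to -0.50.

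Spire2 (ENSMUSG00000010154, chromosome 8 from 123332713 to 123369515 on the plus strand), the paralogue that acts alongside Spire1 in the oocyte, stood at 16.5 and 19.7 CPM at 10 cycles, 26.3 and 23.3 CPM at 14 cycles and 15.9 and 29.9 CPM at 18 cycles. The 2 libraries at 18 cycles spanned all the others, so the groups overlapped. Its log2 fold change of 0.58 ± 0.37 against 10 cycles did not pass (adjusted p 0.24 by edgeR). Daam1 (ENSMUSG00000034574, chromosome 12 from 71831078 to 71992333 on the plus strand) encodes a formin of the Wnt and planar polarity pathway. Its levels were 263 and 242 CPM at 10 cycles, 201 and 198 CPM at 14 cycles and 186 and 190.5 CPM at 18 cycles. On the CPM scale both libraries at 18 cycles lay just below those at 14 cycles, and the libraries at 10 cycles were the highest. The log2 fold change against 10 cycles was -0.16 ± 0.19, and it did not pass. Against 14 cycles it was 0.22 ± 0.19 with median ratio scaling and -0.085 with total counts, so its direction there depends on the scaling.

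Actr2 and Actr3 encode ARP2 and ARP3, the actin-related proteins at the core of the Arp2/3 complex, which starts a new filament on the side of an old one. Actr2 (ENSMUSG00000020152, chromosome 11 from 20062304 to 20112913 on the minus strand) stood at 181 and 154 CPM at 10 cycles, 155 and 149 CPM at 14 cycles and 113 and 138 CPM at 18 cycles. On the CPM scale the libraries at 18 cycles were the lowest, by a small margin. Against 14 cycles the log2 fold change was 0.025 ± 0.21 with median ratio scaling, -0.057 with TMM and -0.28 with total counts, so no direction can be read. Actr3 (ENSMUSG00000026341, chromosome 1 from 125392905 to 125435727 on the minus strand) stood at 80.6 and 105 CPM at 10 cycles, 74.9 and 70.2 CPM at 14 cycles and 70.9 and 84.97 CPM at 18 cycles. Here the libraries at 18 cycles lay among the others. Wasl (ENSMUSG00000029684, chromosome 6 from 24613805 to 24665009 on the minus strand) encodes N-WASP, which activates the complex, and stood at 173 and 211 CPM at 10 cycles, 160.3 and 181 CPM at 14 cycles and 282 and 169 CPM at 18 cycles. Replicate 1 at 18 cycles was above all 4 libraries with fewer cycles and replicate 2 was not. None of these 3 genes passed the test against 10 cycles, with log2 fold changes of -0.15 (Actr2), 0.0053 (Actr3) and 0.48 (Wasl). The value of Actr3 turned to -0.081 with TMM and -0.26 with total counts. Against 14 cycles Wasl stood at 0.69 (adjusted p 0.0405 by edgeR), and without replicate 2 at 18 cycles it was called at 0.99. Leaving out 1 library at a time gave values from 0.39 to 0.99.

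Rab11a (ENSMUSG00000004771, chromosome 9 from 64715299 to 64737758 on the minus strand) encodes a small GTPase of recycling vesicles, which carry Spire and formin-2 in the oocyte. It stood at 360.2 and 392 CPM at 10 cycles, 355 and 417 CPM at 14 cycles and 828 and 688 CPM at 18 cycles. Both libraries at 18 cycles lay above the other 4. The log2 fold change was 1.27 ± 0.20 against 10 cycles, with an adjusted p of 0.000735 by edgeR, and 1.27 ± 0.20 against 14 cycles, with an adjusted p of 0.000731. The first call was lost without replicate 1 at 10 cycles (1.17), and the second without replicate 1 (1.17) or replicate 2 (1.38) at 14 cycles. Myo5b (ENSMUSG00000025885, chromosome 18 from 74440936 to 74771493 on the plus strand) encodes myosin Vb, the motor on these vesicles, and stood at 509.6 and 429 CPM at 10 cycles, 471 and 477 CPM at 14 cycles and 478 and 435 CPM at 18 cycles. All 6 libraries overlapped, and over all 12 libraries it varied least of the 10 genes, by a factor of 1.45 between the lowest and the highest. Its log2 fold change against 10 cycles was 0.23 ± 0.19 and did not pass, and it was -0.039 with total counts.

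Cfl1 (ENSMUSG00000056201, chromosome 19 from 5490455 to 5495201 on the plus strand) encodes cofilin-1, which severs filaments. Its levels were 131 and 126 CPM at 10 cycles, 131 and 132 CPM at 14 cycles and 69.6 and 89.1 CPM at 18 cycles. The 4 libraries at 10 and 14 cycles lay close together and both libraries at 18 cycles lay below them. The log2 fold change was -0.43 ± 0.22 against 10 cycles and -0.43 ± 0.22 against 14 cycles, and neither passed (adjusted p 0.148 and 0.143 by edgeR). The 7 genes that missed the threshold against 10 cycles ranged from -0.43 (Cfl1) to 0.58 (Spire2).

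**Figure D1:**
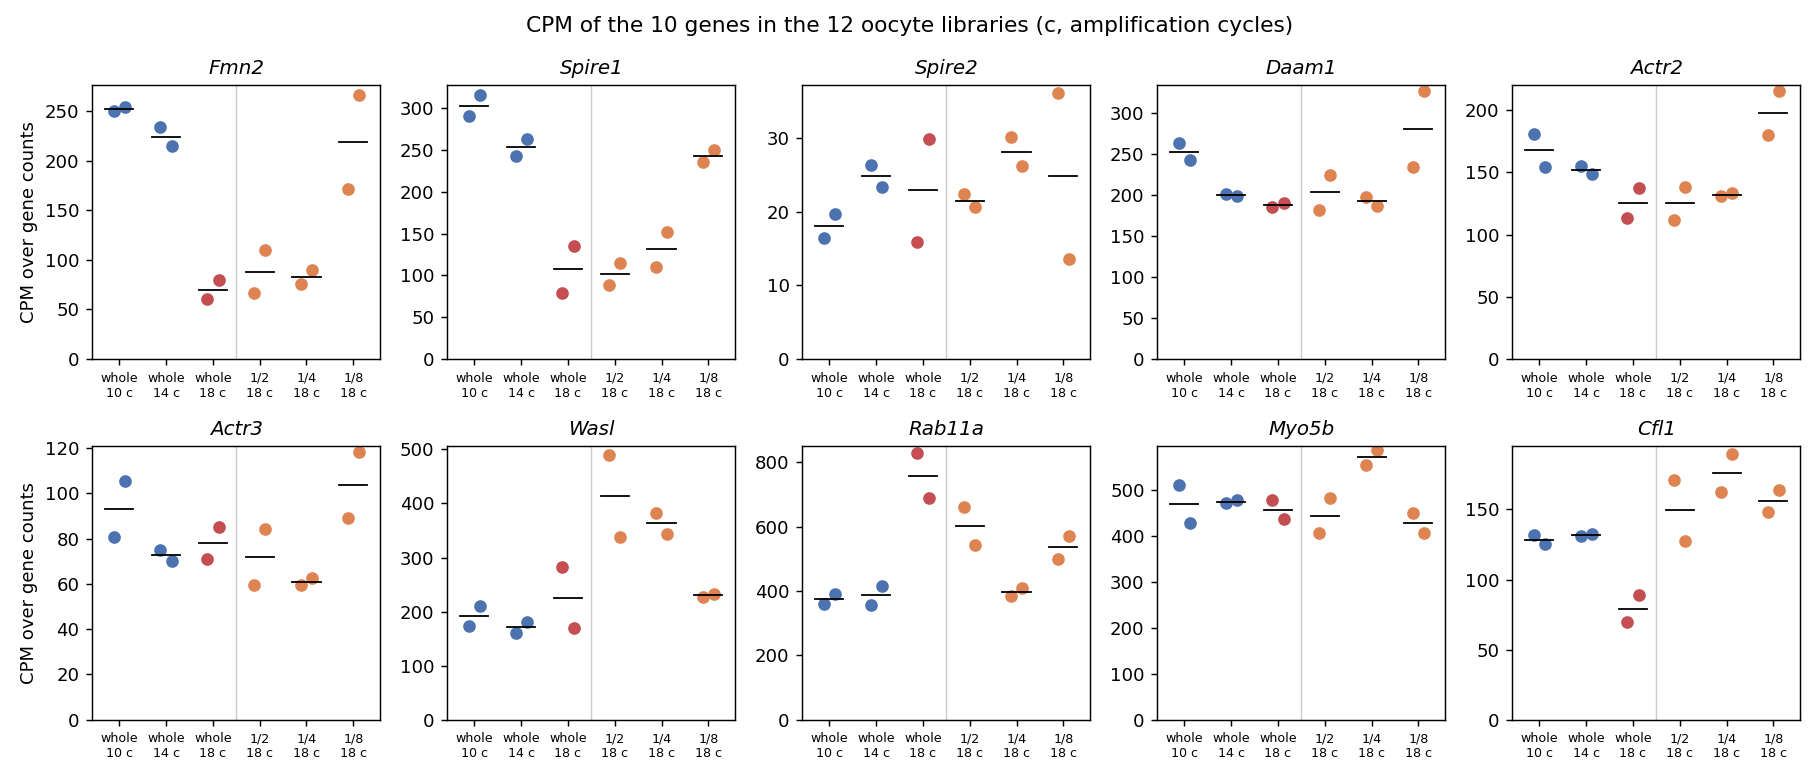
CPM over gene counts (vertical axis, from 0) of each of the 10 genes in the 12 libraries, by group, with 1 point per library and a line at the group mean. Fmn2 stood at 60.3 and 79.7 CPM in whole oocytes at 18 cycles, below the 4 whole oocytes with fewer cycles, and Rab11a at 828 and 688 CPM, above them.

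A ratio of 2 genes within 1 library does not depend on how libraries are scaled. Ratios of the whole oocytes come first. The ratios whose groups did not overlap are then given for the fractions, also amplified for 18 cycles. The ratio of Fmn2 to Daam1, the 2 formins, was 0.949 and 1.05 at 10, 1.16 and 1.09 at 14, and 0.325 and 0.418 at 18 cycles. Both libraries at 18 cycles lay below the other 4. The ratio of Fmn2 to Spire2 was 15.2 and 12.9 at 10, 8.88 and 9.23 at 14, and 3.79 and 2.67 at 18 cycles, and that of Spire1 to Spire2 was 17.6 and 16.03 at 10, 9.23 and 11.3 at 14, and 4.98 and 4.53 at 18 cycles. In both, the groups again did not overlap. The partners Fmn2 and Spire1 gave a ratio of 0.861 and 0.805 at 10, 0.962 and 0.818 at 14, and 0.762 and 0.589 at 18 cycles, a smaller step with no overlap. Myo5b over Rab11a was 1.41 and 1.09 at 10, 1.32 and 1.14 at 14, and 0.577 and 0.633 at 18 cycles, also with no overlap. The ratio of Actr2 to Actr3 was 2.24 and 1.46 at 10, 2.07 and 2.12 at 14, and 1.59 and 1.62 at 18 cycles, and the groups overlapped. Wasl over Actr3 overlapped too, at 2.15 and 2.00 at 10, 2.14 and 2.58 at 14, and 3.98 and 1.99 at 18 cycles.

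In whole oocytes the mean log2 ratio at 18 cycles differed from that of the 4 libraries at 10 and 14 cycles by -1.82 for Fmn2 to Spire2, -1.52 for Fmn2 to Daam1, -1.46 for Spire1 to Spire2, -1.03 for Myo5b to Rab11a and -0.36 for Fmn2 to Spire1. Each of these 5 had a p of 0.133 in an exact two-sided permutation test, which is the smallest p that 2 against 4 libraries allow, and 0.187 after adjustment over the 7 ratios. With these libraries that test could therefore not reach a p of 0.05. For Actr2 to Actr3 the difference was -0.28 (exact permutation p = 0.400), and for Wasl to Actr3 it was 0.35 (exact permutation p = 0.667). The last of these turned to -0.15 without replicate 1 at 18 cycles.

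The second question was whether the genes kept their place when less of an oocyte was used. With median ratio scaling over 14788 genes, 0 of the 10 genes passed between the 1/2 fractions and whole oocytes at 18 cycles, against 0.122% of all genes in the edgeR test. At an unadjusted p of 0.05 there were 2 of the 10, against 13.1% of all genes, and with DESeq2 0, against 1.03%. Between the 1/4 fractions and whole oocytes 0 of the 10 passed in edgeR, against 0.460% of all genes. There, 2 of the 10 had an unadjusted p under 0.05, against 15.8% of all genes, and DESeq2 called 1, Rab11a, against 1.63%. In the 1/8 fractions Fmn2 was called higher, 1 of the 10, against 7.06% of all genes, and 0 were lower, against 8.69%. All 3 comparisons share the whole oocytes at 18 cycles as control, and the fractions go back to 2 oocytes only.

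Fmn2 stood at 66.1 and 109 CPM in the 1/2 fractions, 75.97 and 89.9 CPM in the 1/4 fractions and 171 and 266 CPM in the 1/8 fractions, beside 60.3 and 79.7 CPM in whole oocytes at 18 cycles. Both 1/8 fractions were above every other library at 18 cycles, and the 1/2 and 1/4 fractions overlapped with the whole oocytes. The 1/8 mean of 219 ± 67.3 CPM (SD, n = 2) was near the 252 ± 3.09 CPM of whole oocytes at 10 cycles. The log2 fold change of the 1/8 fractions was 1.43 ± 0.33 (SE), with an adjusted p of 0.00264 by edgeR. The call was lost without replicate 2 of the 1/8 fractions (1.10) and without replicate 1 of the whole oocytes (1.16). With whole oocytes at 10 cycles as the reference the value was -0.16 and was not called. Spire1 stood at 88.95 and 115 CPM in the 1/2 fractions, 110.2 and 152 CPM in the 1/4 fractions and 236 and 249.7 CPM in the 1/8 fractions. Both 1/8 fractions lay above all other libraries at 18 cycles. Its log2 fold change of 0.97 ± 0.31 missed the threshold (adjusted p 0.0244 by edgeR) but passed with scaling by total counts (1.19) and without replicate 2 of the whole oocytes (1.47). The value ran from 0.55 to 1.47 when 1 library at a time was left out. It was -0.27 with whole oocytes at 10 cycles as the reference. On that reference both genes were called lower in the 1/2 fractions (Fmn2 -1.29, Spire1 -1.34) and in the 1/4 fractions (-1.49 and -1.10). That reference also differs in the number of cycles.

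Spire2 stood at 22.4 and 20.6 CPM in the 1/2 fractions, 30.04 and 26.1 CPM in the 1/4 fractions and 36.04 and 13.5 CPM in the 1/8 fractions. The 1/8 fractions held both its highest and its lowest value of the 12 libraries, so no direction can be read. Daam1 stood at 182 and 224 CPM in the 1/2 fractions, 198 and 187 CPM in the 1/4 fractions and 234 and 327 CPM in the 1/8 fractions. The 1/8 fractions were the highest group at 18 cycles, and the log2 fold change of 0.37 ± 0.28 did not pass. For the Arp2/3 complex, Actr2 stood at 112 and 138 CPM in the 1/2 fractions, 131 and 133 CPM in the 1/4 fractions and 179.7 and 215 CPM in the 1/8 fractions, and Actr3 at 59.6 and 84.2 CPM in the 1/2 fractions, 59.3 and 62.8 CPM in the 1/4 fractions and 89.3 and 118 CPM in the 1/8 fractions. In both genes the 1/8 fractions were above the other libraries at 18 cycles, and neither passed (0.45 and 0.20).

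Wasl stood at 490.2 and 338 CPM in the 1/2 fractions, 382 and 344 CPM in the 1/4 fractions and 227 and 233 CPM in the 1/8 fractions. The 1/2 and 1/4 fractions were above all whole oocytes, and the 1/8 fractions lay between the 2 whole oocytes at 18 cycles. The log2 fold changes were 0.85, 0.56 and -0.16 in the 1/2, 1/4 and 1/8 fractions, with no call. With whole oocytes at 10 cycles as the reference they were 1.35, 1.04 and 0.31, and the first 2 were called. Cfl1 stood at 171 and 128 CPM in the 1/2 fractions, 162 and 189.5 CPM in the 1/4 fractions and 148 and 164 CPM in the 1/8 fractions. All 6 fractions were above both whole oocytes at 18 cycles, with log2 fold changes of 0.88, 1.00 and 0.77. None passed (adjusted p 0.165, 0.0918 and 0.0558 by edgeR).

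Rab11a stood at 661 and 544 CPM in the 1/2 fractions, 385 and 408 CPM in the 1/4 fractions and 500.4 and 571 CPM in the 1/8 fractions. All 6 fractions were below both whole oocytes at 18 cycles, and the 1/4 fractions were the lowest. The log2 fold changes were -0.36, -1.07 and -0.70. The second of these had an adjusted p of 0.0448 by edgeR and passed with DESeq2 (-1.07). With whole oocytes at 10 cycles as the reference all 3 turned, to 0.92, 0.19 and 0.56, and the first was called. Myo5b stood at 405 and 482 CPM in the 1/2 fractions, 554 and 587 CPM in the 1/4 fractions and 449 and 405 CPM in the 1/8 fractions. The 1/4 fractions were its highest group, and its log2 fold changes of -0.082, 0.18 and -0.29 did not pass.

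Between the 1/8 and the 1/2 fractions 0 of the 10 genes passed in edgeR, against 5.94% of all genes. At an unadjusted p of 0.05 there were 3 of the 10, against 29.0% of all genes, and DESeq2 called the same 3, against 9.79%. These were Fmn2 (1.16 ± 0.32) and Spire1 (1.10 ± 0.31), higher in the 1/8 fractions, and Wasl (-1.02 ± 0.29), lower there. Their adjusted p-values by edgeR were 0.0192, 0.0212 and 0.0234. Fmn2 and Spire1 were also called with no filter on low counts and with scaling by total counts. In all 3 genes both 1/8 fractions lay on the same side of both 1/2 fractions.

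**Figure D2:**
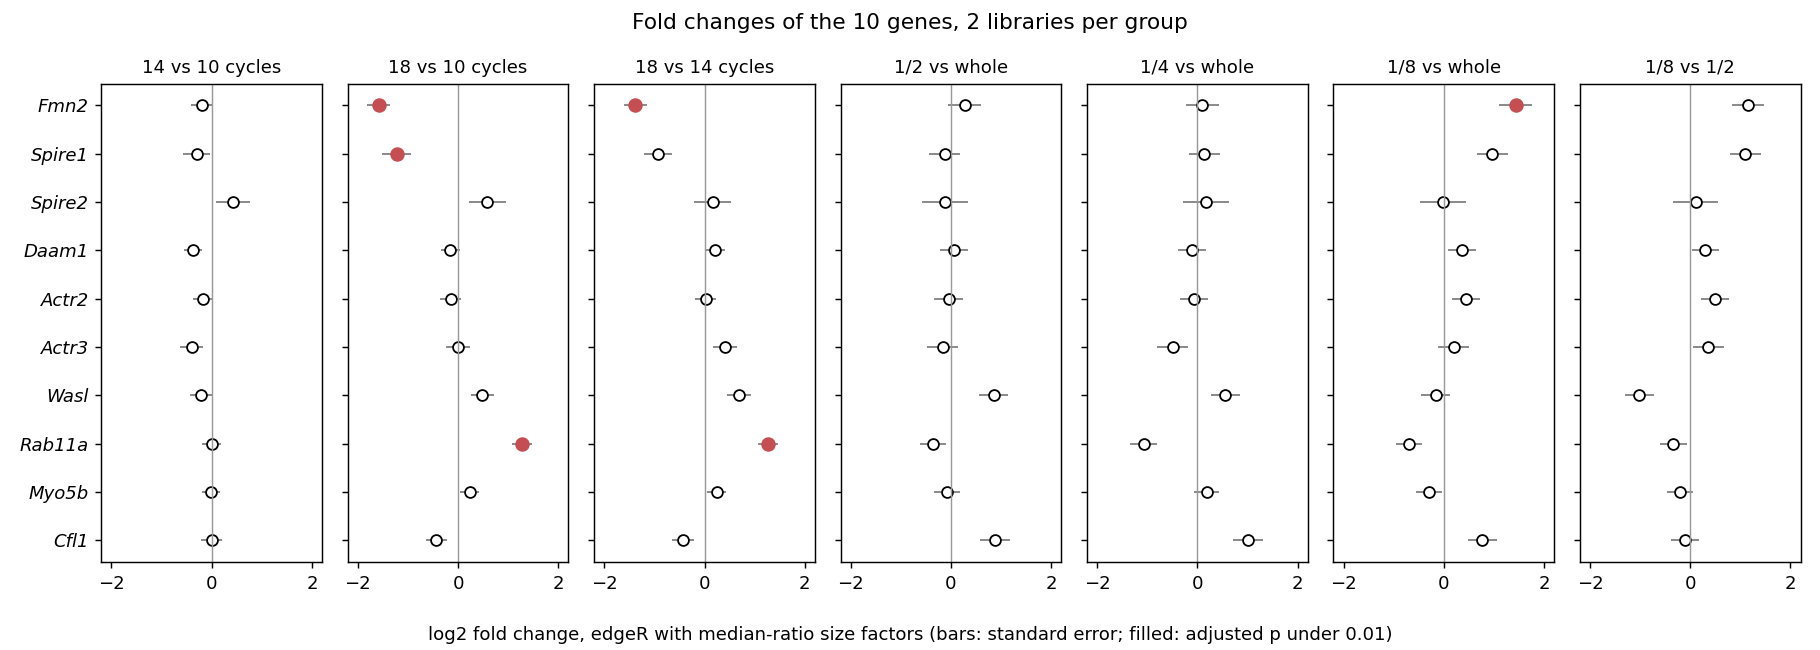
Log2 fold change (horizontal axis) of the 10 genes in 7 comparisons with median ratio scaling, 2 libraries per group, with bars of 1 standard error and filled points at an adjusted p under 0.01. Fmn2 was at -1.58 in 18 against 10 cycles and at 1.43 in the 1/8 fractions against whole oocytes at 18 cycles.

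ERCC scaling asks how much of each transcript was left per added spike-in. Relative to whole oocytes at 18 cycles, 8 of the 10 genes were called lower in the 1/2 fractions, against 52.0% of all genes. The exceptions were Wasl (-1.16, adjusted p 0.0288 by edgeR) and Cfl1 (-1.02, adjusted p 0.0508). All 10 were lower in the 1/4 fractions, against 69.7% of all genes, and all 10 in the 1/8 fractions, against 87.5%. Between the 1/8 and the 1/2 fractions all 10 were lower as well, against 71.8%. The median log2 fold changes of the 10 genes were -2.0, -2.57 and -4.65 in the 1/2, 1/4 and 1/8 fractions, beside -2.0, -2.69 and -4.92 for all genes. Without replicate 2 of the 1/2 fractions 0 of the 10 genes were called there, against 13.2% of all genes, while the values of the 8 lay between -2.17 (Actr3) and -1.74 (Spire2). The call of Fmn2 in the 1/2 fractions was also lost without their replicate 1 (-1.61) and without replicate 1 of the whole oocytes (-1.46), and that of Daam1 without the latter (-1.47). Wasl was called without replicate 2 of the whole oocytes (-1.76), stood at -0.21 without their replicate 1, and ran from -1.79 to -0.21 when 1 library at a time was left out. In the 1/4 fractions the call of Cfl1 was lost without their replicate 1 (-1.74) or replicate 2 (-1.61), that of Spire2 without their replicate 2 (-2.19) and that of Wasl without replicate 1 of the whole oocytes (-1.31). Between the 1/8 and the 1/2 fractions Fmn2 was not called without replicate 1 of the 1/8 fractions (-1.54).

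Counts per 1000 ERCC counts show the steps. Fmn2 had 113 and 92.3 in whole oocytes at 18 cycles, 29.02 and 37.6 in the 1/2 fractions, 16.3 and 15.6 in the 1/4 fractions and 8.42 and 12.4 in the 1/8 fractions. The means of the fractions were 32.5%, 15.5% and 10.1% of the whole oocytes at 18 cycles, where dilution alone would leave 50%, 25% and 12.5%. Rab11a had 1551 and 796 in whole oocytes at 18 cycles, 290.1 and 187 in the 1/2 fractions, 82.5 and 70.9 in the 1/4 fractions and 24.7 and 26.6 in the 1/8 fractions. Its fractions kept 20.3%, 6.53% and 2.18%. Cfl1 had 130.4 and 103 in whole oocytes at 18 cycles, 75.2 and 43.9 in the 1/2 fractions, 34.8 and 32.9 in the 1/4 fractions and 7.31 and 7.62 in the 1/8 fractions. It kept 50.97%, 29.00% and 6.40%. Wasl had 529 and 196 in whole oocytes at 18 cycles, 215 and 116 in the 1/2 fractions, 81.9 and 59.7 in the 1/4 fractions and 11.2 and 10.8 in the 1/8 fractions, with shares of 45.7%, 19.5% and 3.04% and whole oocytes that differed widely. The shares were also computed without each library in turn, an alternative chosen after seeing the data. Without replicate 1 of the whole oocytes Wasl kept 84.5%, 36.1% and 5.61%, Rab11a 29.96%, 9.63% and 3.22%, Cfl1 57.7%, 32.8% and 7.24% and Fmn2 36.1%, 17.3% and 11.3%, so the order of the genes by share depended on that library, with Wasl above Cfl1 in the 1/2 and 1/4 fractions. For all genes the shares were 25.8%, 12.8% and 3.16% with all libraries and 33.8%, 16.8% and 4.14% without that one. Without replicate 1 of the 1/2 fractions their shares were 37.6% for Cfl1, 36.7% for Fmn2 and 32.1% for Wasl. Without their replicate 2 they were 64.4%, 28.3% and 59.4%, so the order of Fmn2 and Wasl depended on these libraries too. In the 1/8 fractions the log2 fold change was -5.68 ± 0.55 for Rab11a and -3.48 ± 0.51 for Fmn2.

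These shares depend on the whole oocytes at 18 cycles, which had 1611 and 1474 ERCC counts, the fewest of the 12 libraries. They also take it that these lysates received as much spike-in as the others, which was not tested. Against whole oocytes at 10 cycles the shares of all genes were 115%, 56.8% and 14.01%. On that reference Fmn2 kept 38.7%, 18.5% and 12.1% and Spire1 37.8%, 24.1% and 11.2%. Both were under the share left by dilution in the 1/2 fractions and near it in the 1/8 fractions. Wasl kept 251%, 107% and 16.7%, and Rab11a 185%, 59.6% and 19.9%. Their 1/2 fractions thus held more counts per ERCC count than a whole oocyte at 10 cycles, as did those of all genes together. The same held for Spire2 (136%), Cfl1 (136%) and Myo5b (108%). Actr2 (84.8%), Actr3 (86.1%) and Daam1 (91.1%) stayed below the whole oocyte, as did Fmn2 and Spire1. These 2 references also differ in the number of cycles, so cycles and fraction cannot be told apart there. The fractions also came from other oocytes than the whole libraries did. The part of differences between oocytes in these shares was not tested.

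**Figure D3:**
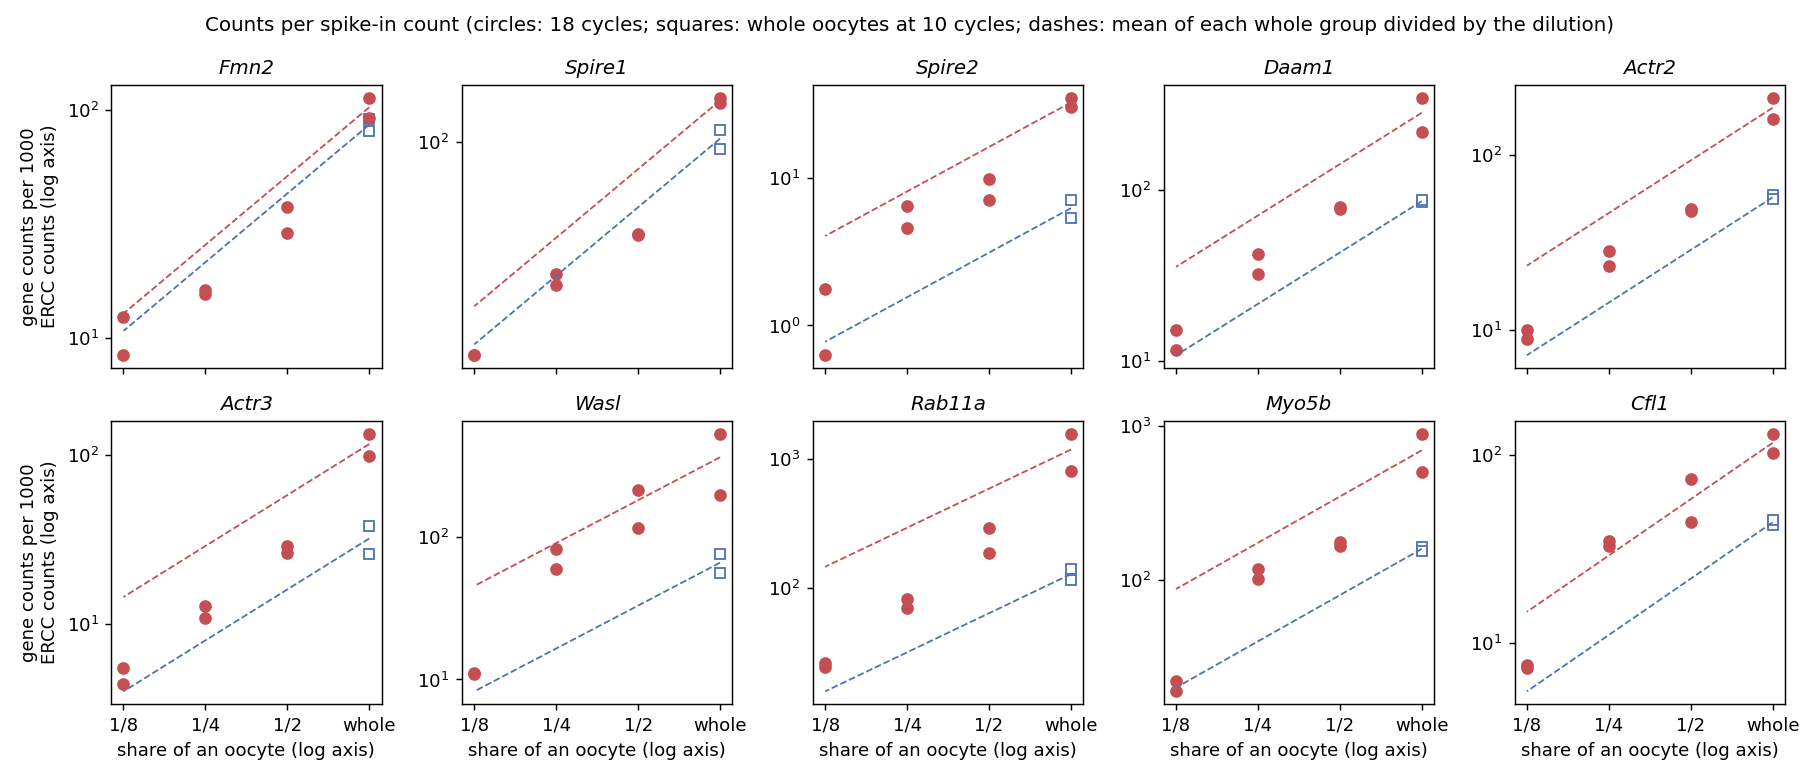
Gene counts per 1000 ERCC counts (vertical log axis) against the share of an oocyte (horizontal log axis) for the 10 genes, with 1 point per library: circles for 18 cycles, squares for whole oocytes at 10 cycles, and dashed lines for the mean of each whole group divided by the dilution. In the 1/2 fractions Cfl1 kept 51.0% of the whole oocytes at 18 cycles, near the line, and Rab11a 20.3%, below it. With 1 of these fractions left out Cfl1 kept 37.6% or 64.4%.

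Other genes of actin assembly were followed as a list of 78, of which 75 were tested in the cycle comparisons and 72 in the fraction comparisons. Between 14 and 10 cycles 0 passed in edgeR, against 0% of all genes, with 3 at an unadjusted p of 0.05, against 2.93%, and 0 by DESeq2, against 0.0114%. Between 18 and 10 cycles 6 of the 75 fell, against 10.8% of all genes, and 14 rose, against 12.3%, with a median log2 fold change of 0.40, beside -0.29 for all genes. The lists that follow are to be read beside the same 10.8% and 12.3% of all genes. Of 11 other formins 1 fell and 1 rose (median -0.70). Of 8 other Arp2/3 subunits 1 fell and 3 rose (0.81), and of 14 nucleation promoting factors 1 fell and 1 rose (-0.29). Of 5 small GTPases 3 rose (1.20), and of 19 genes of turnover, capping and monomer binding 1 fell and 5 rose (0.34). Of 8 genes of vesicle transport 1 rose (-0.047), of 8 genes of cortex and contractility 2 fell (-0.27), and of the 2 cytoplasmic actins 0 passed (1.21), with 1 at an unadjusted p of 0.05, against 45.6% of all genes, and 1 by DESeq2, against 29.4%. Between 18 and 14 cycles 4 of the 75 fell, against 10.7%, and 15 rose, against 12.5%.

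Of the list genes called between 18 and 10 cycles, the 3 with the largest falls and the 3 with the largest rises are given here. The rises were larger in size, and 8 of the 14 exceeded the largest fall. Cyfip2, of the WAVE complex, fell from 87.9 ± 0.455 to 21.9 ± 8.87 CPM (mean and SD of 2 libraries), which is -1.78 on the log2 scale (adjusted p 0.00128 by edgeR). The call was lost without replicate 1 (-1.82) or replicate 2 (-1.73) at 10 cycles. Ect2, which activates RhoA at cytokinesis, fell from 125.2 ± 12.8 to 38.3 ± 2.16 CPM (-1.45, adjusted p 0.00059 by edgeR). Rdx, which encodes radixin and links actin to the membrane, fell from 2868 ± 506 to 899 ± 159 CPM (-1.40, adjusted p 0.00138 by edgeR), a call lost without replicate 2 at 10 cycles (-1.17). Pfn1, which encodes profilin-1 and feeds monomers to formins, rose from 138 ± 2.51 to 584 ± 82.1 CPM (2.34, adjusted p 5.40e-05 by edgeR). Arf6 rose by 2.86 and Rac1 by 2.29 on the log2 scale, and the call of Arf6 was lost without replicate 1 at 10 cycles (2.77). Both encode small GTPases, and their exons overlap with genes on the opposite strand over 13.6% and 51.4% of bases. The library kit keeps no strand, so such reads cannot be assigned by strand.

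In the 1/8 fractions, with median ratio scaling, 14 of the 72 list genes fell against whole oocytes at 18 cycles, against 8.69% of all genes, and 4 rose, against 7.06% (median -0.31, beside 0.03 for all genes). In the 1/2 fractions 0 passed in edgeR, against 0.122% of all genes, with 11 at an unadjusted p of 0.05, against 13.1%, and 3 by DESeq2, against 1.03%. In the 1/4 fractions 2 fell, Arf6 and Rac1, against 0.426%. Both calls were lost without replicate 2 of the whole oocytes, as were all other calls of that comparison over all genes. Rac1 stood at 1071 CPM in replicate 1 and 1706 CPM in replicate 2 of the whole oocytes at 18 cycles. Arf6 fell most in the 1/8 fractions (-3.16, adjusted p 1.22e-05 by edgeR), from 593 ± 295 to 77.5 ± 5.12 CPM, and Jmy, a nucleation promoting factor, fell by 2.71. The call of Jmy was lost without replicate 1 (-3.43) or replicate 2 (-2.43) of the 1/8 fractions and without replicate 1 (-2.85) or replicate 2 (-2.61) of the whole oocytes. Dstn, which encodes the cofilin relative destrin, rose from 38.8 ± 15.03 to 134.5 ± 7.44 CPM (1.59, adjusted p 0.000791 by edgeR), and Arpc3, a subunit of the Arp2/3 complex, from 161 ± 2.78 to 429 ± 61.9 CPM (1.21). The call of Dstn was lost without replicate 2 of the whole oocytes (1.30), and that of Arpc3 without replicate 1 of the 1/8 fractions (1.08) or either whole oocyte (1.14 and 1.25). Abi1, of the WAVE complex, rose by 1.17, but only the fit without replicate 1 of the 1/8 fractions kept that call among the 8 that left out a library (0.91 to 1.43). Whamm fell by 2.56 on the strength of 1 library: it stood at 641 CPM in replicate 2 of the whole oocytes at 18 cycles and 68.9 CPM in replicate 1. Leaving out that replicate 2 moved the value to -0.096, and the call was also lost without replicate 1 (-2.32) or replicate 2 (-2.75) of the 1/8 fractions. With ERCC scaling 58, 67 and 70 of the 72 were lower in the 1/2, 1/4 and 1/8 fractions, against 52.0%, 69.7% and 87.5% of all genes.

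On the TPM scale, the most abundant gene of the cortex list was Rdx, with a median of 1017 TPM over the 12 libraries. Arpc5l (529.6) led the Arp2/3 subunits, Fmnl3 (401) the other formins, Pfn1 (369) the turnover genes, Actb (335) the actins, Rac1 (272) the small GTPases and Brk1 (255) the nucleation promoting factors. These medians pool groups of different levels: Pfn1 had a mean of 138 CPM at 10 cycles and of 584 CPM in whole oocytes at 18 cycles. Rab11fip1 led the vesicle list at 29.6 TPM. It did not lead in every library: Rab11fip4, with shorter exons, had more counts in replicate 2 at 10 cycles (84.2 CPM). On the same scale Rab11a had a median of 472 and Fmn2 of 52.8.

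Genes with the nearest profile over the 12 libraries were sought for the 3 spindle nucleators among 8858 genes, by the root mean square difference of centred log2(CPM + 1). Nearest to Fmn2 were Ttc37 (0.13), Ireb2 (0.14) and Spin1 (0.14), where the median gene was at 0.83. Nearest to Spire1 were Aknad1 (0.13), Polr2b (0.14) and Wee2 (0.14), with a median of 0.73. Spire2 had more distant neighbours, Tmcc2 (0.22), Sgsm3 (0.23) and Polg (0.25), with a median of 0.65.

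The libraries began with capture of the poly(A) tail, so the annotated 3′ ends are shown for 4 genes with different profiles over the groups, chosen after their values were seen. These are the last 30 bases of the longest complete protein-coding transcript in GRCm38, 5′ to 3′ on the gene's strand, with the AATAAA nearest the end in capitals: Fmn2 (chr1:174822700-174822729, plus strand), Rab11a (chr9:64715299-64715328, minus strand), Cfl1 (chr19:5495172-5495201, plus strand) and Wasl (chr6:24613805-24613834, minus strand).
Fmn2: ttatatgaaaataaaatgaatAATAAAata
Rab11a: tcctAATAAAcagttacaggggctttccca
Cfl1: taaataaataaatgaataAATAAAactttt
Wasl: taaaattaatttgacccaaatagtataaaa
The polyadenylation hexamer AATAAA was found in the first 3, and neither AATAAA nor ATTAAA in Wasl. Over 21735 transcripts, 1 per gene, 51.7% had AATAAA in the last 30 bases and a further 11.8% had ATTAAA alone. The motif TTTTAT, a cytoplasmic polyadenylation element, occurred in the last 100 bases of Rab11a and not of the other 3, and in 12.9% of all transcripts. These letters describe the annotated end and do not show which end was used.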

How the data were processed

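Poly(A) RNA of 12 libraries, each from 1 whole oocyte or a fraction of 1, was measured. The deposited values are read counts per Ensembl gene and ERCC molecule, which the authors made with cutadapt 2.5, STAR 2.7.2a (mm10) and HTSeq 0.9.1. Reads on no feature (6.90% to 10.8% of counts) and ambiguous reads were left out. Reads carry no molecular identifiers, so intervals cover counting error only.

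A gene was tested when 2 or more libraries of the fit held 5 or more of its counts, with edgeR 4.0.16 (quasi-likelihood, Benjamini-Hochberg over all genes kept, threshold 0.01) in R 4.3.3. There was 1 fit of 3 groups for cycles and 1 fit of 4 groups for fractions, the latter with median ratio and with ERCC size factors. Ratios were tested with scipy 1.17.1 under Python 3.11.15, and copies were sought with BLAST 2.17.0. Lengths came from GENCODE release 21. DESeq2 1.42.0, TMM, total counts, ERCC size factors for cycles, total ERCC counts, no filter, a replicate block, leaving out each library, whole oocytes at 10 cycles as the reference, another CPM denominator and another length were tried as alternatives. Leaving out each library for the shares per ERCC count was added after seeing the data.

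The members and lists were chosen with earlier results of these data known. Named list genes are the at most 3 per direction with the largest fold among those past the threshold and with a mean of at least 50 normalized counts, the most abundant gene per kilobase of each list, and the 3 nearest profiles (mean CPM of at least 10, pseudocount 1). Myl12b was left out of the list because its symbol has more than 1 gene identifier.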

Additional observations from a re-analysis of the deposited data

How the results depend on the processing

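Of 1420 log2 fold changes of the 10 genes under other settings, 1262 kept their direction and side of the threshold, 36 lost a call, 35 gained one and 87 changed sign. A change of sign is counted however near to 0 the value was, and most of these values were not called. Of 208 counts of called genes, 170 stayed within 1.5 times. The causes of the changes listed here were not tested. Depth limits Spire2 most, with 23 counts in its lowest library.

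Counts of called genes moved as follows, with the share of all genes called the same way in brackets. With ERCC size factors 0 genes were lower (0%) and 8 higher (47.6%) in 18 against 10 cycles, and likewise 0 (0.0114%) and 8 (47.9%) in 18 against 14 cycles. In 18 against 14 cycles 2 were lower with DESeq2 (13.7%), no filter (9.35%) or total counts (15.5%). In the 1/4 fractions DESeq2 called 1 lower (1.16%). In the 1/8 fractions total counts gave 2 higher (9.61%). For 1/8 against 1/2, DESeq2 gave 1 lower (6.15%) and 2 higher (3.64%), and no filter (1.99%) or total counts (3.19%) gave 2 higher. With whole oocytes at 10 cycles as the reference the 1/2 fractions had 2 lower (6.88%) and 2 higher (9.30%), the 1/4 fractions 2 lower (4.17%) and 1 higher (5.82%), and the 1/8 fractions 0 higher (0%). With that reference and ERCC, the 1/2 fractions had 0 lower (2.13%) and 1 higher (6.55%) and the 1/4 fractions 2 lower (7.75%). Leaving out 1 library at a time, the lone library being assumed to vary like the others, gave 1 to 2 lower (4.00% to 10.4%) and 0 to 1 higher (5.39% to 12.4%) in 18 against 10 cycles. It gave 0 to 2 lower (5.14% to 10.3%) and 0 to 2 higher (5.73% to 12.3%) in 18 against 14 cycles, 0 to 2 higher in the 1/8 fractions (1.96% to 6.55%), and 0 to 9 lower in the 1/2 fractions with ERCC (13.2% to 60.4%).

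The following log2 fold changes had the opposite sign. With ERCC size factors they were as follows. For 14 against 10 cycles Rab11a -0.029, Cfl1 -0.016. For 18 against 10 cycles Fmn2 0.59, Spire1 0.89, Actr2 2.05, Cfl1 1.76, Daam1 2.07. For 18 against 14 cycles Fmn2 0.82, Spire1 1.22, Cfl1 1.77. With TMM they were as follows. For 14 against 10 cycles Rab11a -0.0053, Cfl1 -0.0050. For 18 against 10 cycles Actr3 -0.081. For 18 against 14 cycles Actr2 -0.057. For 1/8 fractions Spire2 0.093. With no filter 1 turned. For 18 against 10 cycles Actr3 -0.0026. With total counts they were as follows. For 14 against 10 cycles Myo5b 0.015. For 18 against 10 cycles Myo5b -0.039, Actr3 -0.26. For 18 against 14 cycles Spire2 -0.15, Myo5b -0.054, Actr2 -0.28, Daam1 -0.085. For 1/2 fractions Actr2 0.00049. For 1/4 fractions Actr2 0.076, Daam1 0.033. For 1/8 fractions Spire2 0.21, Wasl 0.021. For 1/8 against 1/2 Cfl1 0.062. With whole oocytes at 10 cycles as the reference many turned. For 1/2 fractions Fmn2 -1.29, Spire2 0.48, Myo5b 0.16, Rab11a 0.92, Daam1 -0.081. For 1/4 fractions Fmn2 -1.49, Spire1 -1.10, Rab11a 0.19. For 1/8 fractions Fmn2 -0.16, Spire1 -0.27, Spire2 0.58, Rab11a 0.56, Wasl 0.31. For 1/2 fractions with ERCC Spire2 0.66, Myo5b 0.33, Rab11a 1.12, Cfl1 0.67, Daam1 0.081, Wasl 1.56. For 1/4 fractions with ERCC Spire2 0.11, Wasl 0.39. Leaving out 1 library at a time gave these ranges where a sign changed. For 14 against 10 cycles Myo5b -0.10 to 0.065, Rab11a -0.11 to 0.11, Cfl1 -0.010 to 0.012. For 18 against 10 cycles Actr2 -0.35 to 0.080, Actr3 -0.21 to 0.25. For 18 against 14 cycles Spire2 -0.38 to 0.67, Actr2 -0.17 to 0.26. For 1/2 fractions Fmn2 -0.085 to 0.57, Spire1 -0.53 to 0.38, Spire2 -0.59 to 0.46, Myo5b -0.17 to 0.0068, Actr2 -0.26 to 0.17, Actr3 -0.39 to 0.038, Daam1 -0.051 to 0.18. For 1/4 fractions Fmn2 -0.16 to 0.38, Spire1 -0.27 to 0.64, Spire2 -0.30 to 0.74, Actr2 -0.28 to 0.14. For 1/8 fractions Spire2 -0.93 to 0.56, Actr3 -0.011 to 0.41, Wasl -0.45 to 0.15. For 1/8 against 1/2 Spire2 -0.81 to 0.59, Cfl1 -0.34 to 0.17. The log2 ratio of Wasl to Actr3 ran from -0.15 to 0.85.

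Fits with the replicate number as a replicate block gave 2 lower in 18 against 14 cycles (12.04% of all genes), 2 higher in the 1/8 fractions (7.88%) and 2 higher in 1/8 against 1/2 (2.79%). In the 1/2 fractions with ERCC all 10 genes were then lower (56.6%), with Wasl at -1.12 and Cfl1 at -1.06. Deviations of same-numbered libraries from their group means correlated between -0.14 and 0.14 over genes. Nothing in the labels or methods says that libraries with the same number share an oocyte, so they were not treated as pairs.

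With the 100 genes of most counts left out of the denominator, CPM was 1.21 to 1.27 times as high, and 52 of 60 group means moved by more than 1 SD. Shares per ERCC count without 1 library, chosen after seeing the data, moved by more than 1 SD of the shares between single libraries in 9 of 120 values, each without replicate 1 of the whole oocytes at 18 cycles.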
